A study of Mus musculus with 477 samples.

Results

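The EGF receptor family and its ligands were followed across mouse mammary luminal cells and mammary tumors that carry deletions of Brca1, of 1 allele of Trp53 or of both. The 10 genes were chosen by name, 4 receptors (Egfr, Erbb2, Erbb3 and Erbb4) and 6 ligands (Areg, Ereg, Hbegf, Btc, Tgfa and Nrg1), and all 10 were found among the 21004 genes of the count table. Areg differed most between stages. It was read in many cells of the 3 virgin glands, in few cells of the 4 glands at day 12.5 of pregnancy, in many cells of 2 of the 4 tumors and in few of the other 2. Hbegf and Erbb3 were among the highest members per length at every stage, and Erbb3 was nearly absent from 1 tumor. No member passed the edgeR test in any of the 4 comparisons, and most levels of the less abundant members rested on a few cells.

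Single cells had been captured on Fluidigm C1 chips, which isolate 1 cell per chamber and make full-length cDNA from it. The 312 luminal and 165 tumor cells belonged to 10 groups, taken as 11 female mice, of mixed C57BL/6 and 129/Sv background. Luminal cells were taken from 3- to 4-month-old mice, virgin (v) or pregnant (p), with the day of pregnancy given above. The genotype Br stands for MMTV-Cre; Brca1 fl/fl, 53 for MMTV-Cre; Trp53 fl/+, and Br53 for MMTV-Cre; Brca1 fl/fl with Trp53 fl/+. Each group was taken as 1 mouse, except that pregnant Br luminal cells, which lay on 2 chips, were taken as 2 (pBrL-1 and pBrL-2). Tumor cells (T) came from Br and Br53 mice, and were taken when tumors measured about 1 cm. The luminal mice carried the ROSA mT/mG reporter, in which Cre switches a cell to membrane GFP. Cre was driven by the MMTV promoter, which is active in mammary epithelium but not in it alone. There was no gland without a floxed allele, so every group carried a deletion of Brca1, of 1 Trp53 allele or of both. After removal of blood and endothelial cells, luminal cells had been sorted as live, CD24-high, CD29-low and GFP-positive, and tumor cells as live and CD24-positive. All tissues had been digested in a medium that itself contained EGF, insulin and hydrocortisone, a treatment that virgin, pregnant and tumor samples shared.

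EGF family ligands are made as membrane proteins, cut loose by metalloproteases, and bind receptor tyrosine kinases that work in pairs. Egfr binds Areg, Ereg, Hbegf, Btc and Tgfa, whereas Erbb3 and Erbb4 bind neuregulins such as Nrg1, and Erbb4 also binds Hbegf, Btc and Ereg. Erbb2 has no known ligand and serves as the preferred partner of the others, and Erbb3 has little kinase activity of its own. In the mammary gland, Areg is made by hormone-sensing luminal cells under estrogen and carries the signal for duct growth to Egfr in the stroma, while Erbb4 acts with Stat5 in alveolar differentiation.

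Areg, Ereg and Btc lie in 1 stretch of chromosome 5 in the GENCODE annotation of GRCm38, the assembly also named mm10. Areg spans 91139599 to 91148432 on the plus strand, Ereg 91074622 to 91093646 on the plus strand, and Btc 91357261 to 91402994 on the minus strand. The 250 bases before the start sites of Areg and Btc are shown because these neighbours had different levels in the same mice. Both sequences are from the RefSeq table of the build GRCm38.p6, written 5′ to 3′ on the strand of the gene, at chr5:91139349-91139598 (plus strand) and chr5:91402995-91403244 (minus strand). Capitals mark the cyclic AMP response element TGACGTCA and the TATA motif TATAAA, where they were found on either strand.
Areg: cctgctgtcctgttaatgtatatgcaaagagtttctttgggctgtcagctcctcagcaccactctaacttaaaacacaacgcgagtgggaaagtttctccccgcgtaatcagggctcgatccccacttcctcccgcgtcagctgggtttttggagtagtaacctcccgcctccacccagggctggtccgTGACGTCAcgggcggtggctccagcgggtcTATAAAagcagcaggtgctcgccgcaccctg
Btc: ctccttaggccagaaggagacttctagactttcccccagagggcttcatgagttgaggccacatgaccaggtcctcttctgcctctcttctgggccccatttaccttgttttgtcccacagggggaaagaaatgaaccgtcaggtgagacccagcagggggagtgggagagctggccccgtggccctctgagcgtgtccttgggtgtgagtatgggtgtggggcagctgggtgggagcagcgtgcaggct

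The Areg sequence held TGACGTCA with its first base at -61 and TATAAA at -31 from the start site, and the Btc sequence held neither. Of 32851 upstream windows of this length, 508 (1.55%) held TGACGTCA and 4063 (12.4%) held TATAAA. The shorter TGACG, which lies inside the full element, occurred in 5836 (17.8%) and was present before both genes. The AP-1 motif TGANTCA was found before neither gene, against 2217 (6.75%) of all windows. Matches of letters describe the sequence and do not show binding. The table held such a window for 6 of the 10 members.

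Each mouse gave 30 to 71 cells of 170209 to 3550564 reads, for a depth between 40.3M reads in v53L and 116M reads in pBrL-1. Only 3 of the 8 chips held 2 mice each, so chip and genotype could not be told apart in most comparisons. Luminal markers (Krt8, Krt18, Krt19, Epcam, Cdh1 and Elf3) together gave at least 7296 CPM in each luminal mouse, 4323 to 5903 CPM in 3 tumors and 512 CPM in BrT1, where Krt8 and Krt18 were read, Epcam was at 19.2 CPM, and Krt19 and Cdh1 were at 0. BrT1 also carried mesenchymal genes, with Vim at 4079.8 CPM, Fn1 at 4926 and Zeb1 at 291, whereas BrT2 had Fn1 at 6199.9 CPM but Vim at 306 and Zeb1 at 21.5. Dcn reached 4356 and Col1a2 466 CPM in BrT1, and basal genes summed to 5335 CPM in Br53T2. BrT1 thus lacked several epithelial markers, and the tumor differences are also given without it. Values in CPM are counts scaled to the total of the summed cells of a mouse.

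Per length, the members differed by orders of magnitude, and the order changed with stage. In virgin luminal mice the median CPM per kb of exon sequence was 87.2 (range 73.8 to 241) for Areg, 42.8 (range 20.8 to 64.6) for Hbegf and 23.1 (range 22 to 28.1) for Erbb3. Erbb2 followed at 4.49 (range 2.53 to 9.86), Nrg1 at 4.04 (range 2.18 to 9.06) and Egfr at 2.01 (range 0.813 to 5.9), whose ranges over the mice overlapped. Btc, Tgfa and Erbb4 had medians under 1 CPM per kb, and Ereg had no read in any virgin mouse.

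In pregnant luminal mice Erbb3 led at 29.9 (range 20.8 to 42.6) CPM per kb, followed by Hbegf at 20.8 (range 11.3 to 34.1), whereas Areg stood at 3.51 (range 0.752 to 18.4). In tumors Hbegf stood first at 49.2 (range 40.6 to 160.4), then Areg at 45.2 (range 0.84 to 214) and Erbb3 at 17.7 (range 0.0257 to 40.0), with ranges that overlapped each other. Erbb4 was last in tumors, with a median of 0.00532 CPM per kb. The plot of all members by mouse shows that the spread among mice of 1 stage was often as wide as the differences between stages.

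**Figure D1:**
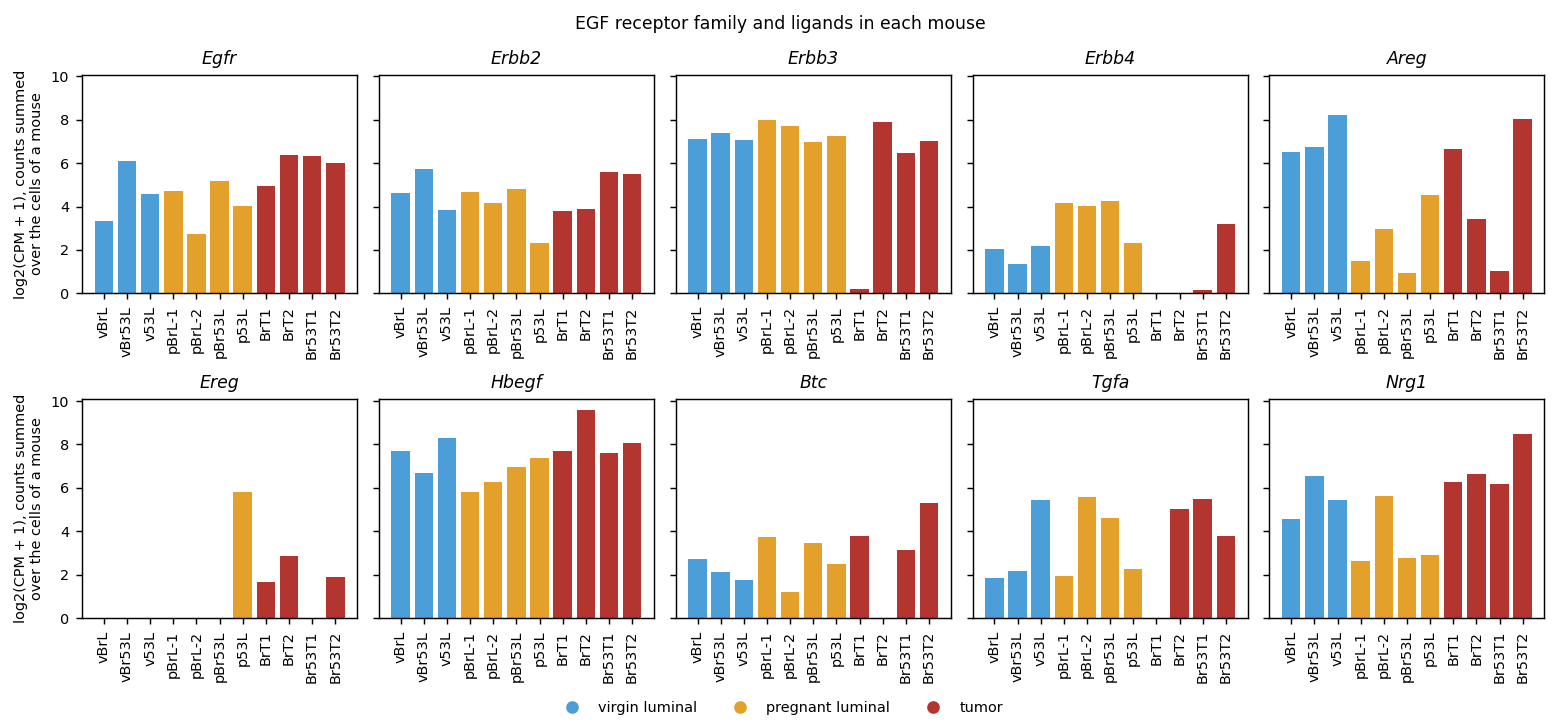
Level of each member in each mouse as log2(CPM + 1) (vertical axis) for 3 virgin luminal, 4 pregnant luminal and 4 tumor mice (bars, colored by stage). Areg is high in the 3 virgin mice and in BrT1 and Br53T2, and Erbb3 is near 0 in BrT1 alone.

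To ask which members differed between tumors and the Brca1-deficient luminal cells, between stages and between genotypes, counts were summed per mouse and tested with edgeR across all genes. Between the 4 tumors and the 5 Brca1-deficient luminal mice, 0 of 9 members tested were called at an adjusted p under 0.05, 2 had an unadjusted p under 0.05 (Hbegf and Nrg1) and DESeq2 called 0. Over all 12978 genes the edgeR share was 0.609% and the DESeq2 share 6.44%, and 1788 genes had an unadjusted edgeR p under 0.05. No member was free of overlap between these arms, against 7.52% of all genes. The median log2 difference of the 9 members was 0.98, with 6 above 0, and that of all genes 0.057. Without BrT1 the log2 tumor differences were 1.28 for Egfr, 0.11 for Erbb2, -0.32 for Erbb3, -2.19 for Erbb4, 0.96 for Areg, 1.82 for Hbegf, 1.04 for Btc, 0.80 for Tgfa and 2.16 for Nrg1, and again 0 were called.

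Between pregnant and virgin luminal mice, edgeR called 0 of 9 members, 1 had an unadjusted p under 0.05 (Areg), and DESeq2 called 1 (Areg). The shares over all 13709 genes were 0.0146% with edgeR and 8.09% with DESeq2, and 1232 genes had an unadjusted edgeR p under 0.05. Areg and Erbb4 did not overlap between the stages, 2 of 9 members against 11.4% of all genes. For Erbb4 this rested on 1 cell of p53L, as given below. The median log2 difference was -0.15 over the members and 0.14 over all genes. Ereg was too low to be tested in either comparison.

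Between Br53 and 53 luminal mice, and between Br53 and Br tumors, edgeR called no gene at all (0% and 0%), and unadjusted p values under 0.05 numbered 681 and 537 genes. Among members these were Areg and Erbb2 in the luminal comparison and none in the tumor comparison. DESeq2 called Areg in the luminal comparison and no member between tumors, against 4.25% and 2.34% of all genes. With 2 mice an arm, 3 of 9 members did not overlap between Br53 and 53 luminal mice, where 31.1% of all genes did not, and 1 of 9 did not overlap between Br53 and Br tumors, where 31.9% did not. The tumor effect was also compared between Trp53 genotypes with an interaction term, which called 0 of 10 members at an adjusted p under 0.05 and 0.00664% of all genes. Erbb4 alone among the members, and 752 of all 15051 genes, had an unadjusted p under 0.05 there. Erbb4 had an edgeR adjusted p of 0.92. Its size is not given, since the 2 Br tumors held 2 and 0 Erbb4 reads and 1 cell held 77.6% of those of Br53T2.

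**Figure D2:**
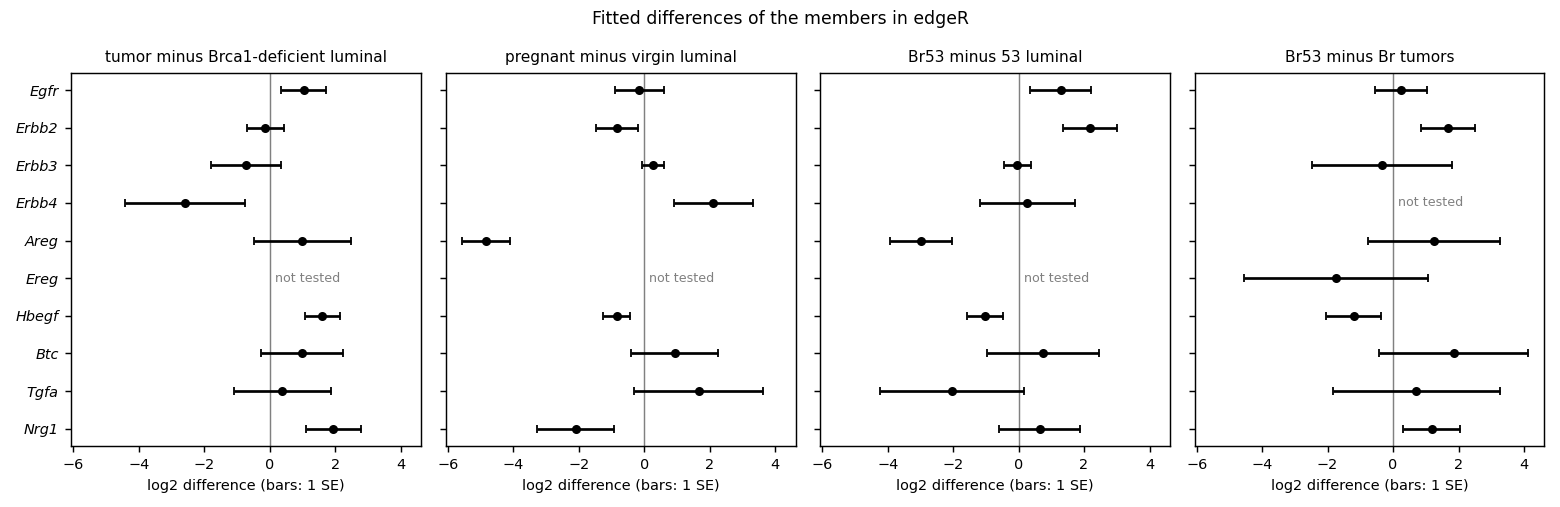
Fitted log2 differences of the members (horizontal axis) with 1 SE (bars) in the 4 edgeR comparisons, first-named arm minus second. Areg has the largest difference between stages, -4.84, and members too low for the test are marked as not tested.

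Areg encodes amphiregulin, the Egfr ligand of hormone-sensing luminal cells. Its levels were 89.7 (vBrL), 106.003 (vBr53L) and 293 CPM (v53L) among virgin mice and 1.81 (pBrL-1), 6.71 (pBrL-2), 0.914 (pBr53L) and 22.3 CPM (p53L) among pregnant mice. Every virgin mouse therefore lay above every pregnant mouse, with the smallest gap between vBrL and p53L. The mean was 163 ± 113 CPM (SD, n = 3) in virgin and 7.94 ± 9.93 CPM (SD, n = 4) in pregnant mice. With genotype in the fit, Areg was -4.84 ± 0.74 (log2, SE) in pregnancy, and the adjusted p from edgeR was 0.116 and that from DESeq2 4.52e-10.

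Whether edgeR called Areg depended on the mice and on the covariate. With chip in place of genotype, where SC7 and SC9 each held both stages, the difference was -5.19 with an adjusted p of 0.00862. Without p53L the adjusted p was 0.0255 and without v53L 0.036, and over all mice left out in turn it ranged up to 0.232, with a log2 difference of -5.49 to -4.08. Over the other alternatives it ranged from 1.25e-10 to 0.387. Both stages shared a chip in 2 cases, and the direction was the same in each. On chip SC7 the difference between pBr53L and vBr53L was -5.81 on the log2(CPM + 1) scale, and on SC9 that between p53L and v53L was -3.66.

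In tumors Areg was 100.2 (BrT1), 9.72 (BrT2), 1.02 (Br53T1) and 260.1 CPM (Br53T2). BrT1 and Br53T2 thus reached the range of virgin glands, and BrT2 and Br53T1 lay among the pregnant ones, 1 tumor of each genotype on either side. Against the 5 Brca1-deficient luminal mice the difference was 0.99 ± 1.48 (log2, SE) and the adjusted p from edgeR was 0.824. It was 0.96 without BrT1, -0.34 without Br53T2, and 4.74 against the 3 pregnant mice only.

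The same split appeared in the share of cells with an Areg read after each cell was thinned to 100000 reads. Among virgin mice it was 15 of 35 cells (42.9%, exact 95% interval 26.3 to 60.6%) in vBrL, 12 of 39 cells (30.8%, exact 95% interval 17 to 47.6%) in vBr53L and 19 of 40 cells (47.5%, exact 95% interval 31.5 to 63.9%) in v53L. Among pregnant mice the highest was 5 of 36 cells (13.9%, exact 95% interval 4.67 to 29.5%) in p53L, and the other 3 held a read in 1.89 to 7.89% of cells. BrT1 with 31 of 47 cells (66%, exact 95% interval 50.7 to 79.1%) and Br53T2 with 31 of 51 cells (60.8%, exact 95% interval 46.1 to 74.2%) had the highest shares of all mice. Their intervals cover counting error only, since reads without molecular identifiers are not independent molecules. Before thinning, 88.6% of vBrL cells had a read, but only 7 of 35 reached 100 CPM. In v53L 15 of 40 cells and in Br53T2 23 of 51 did so.

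**Figure D3:**
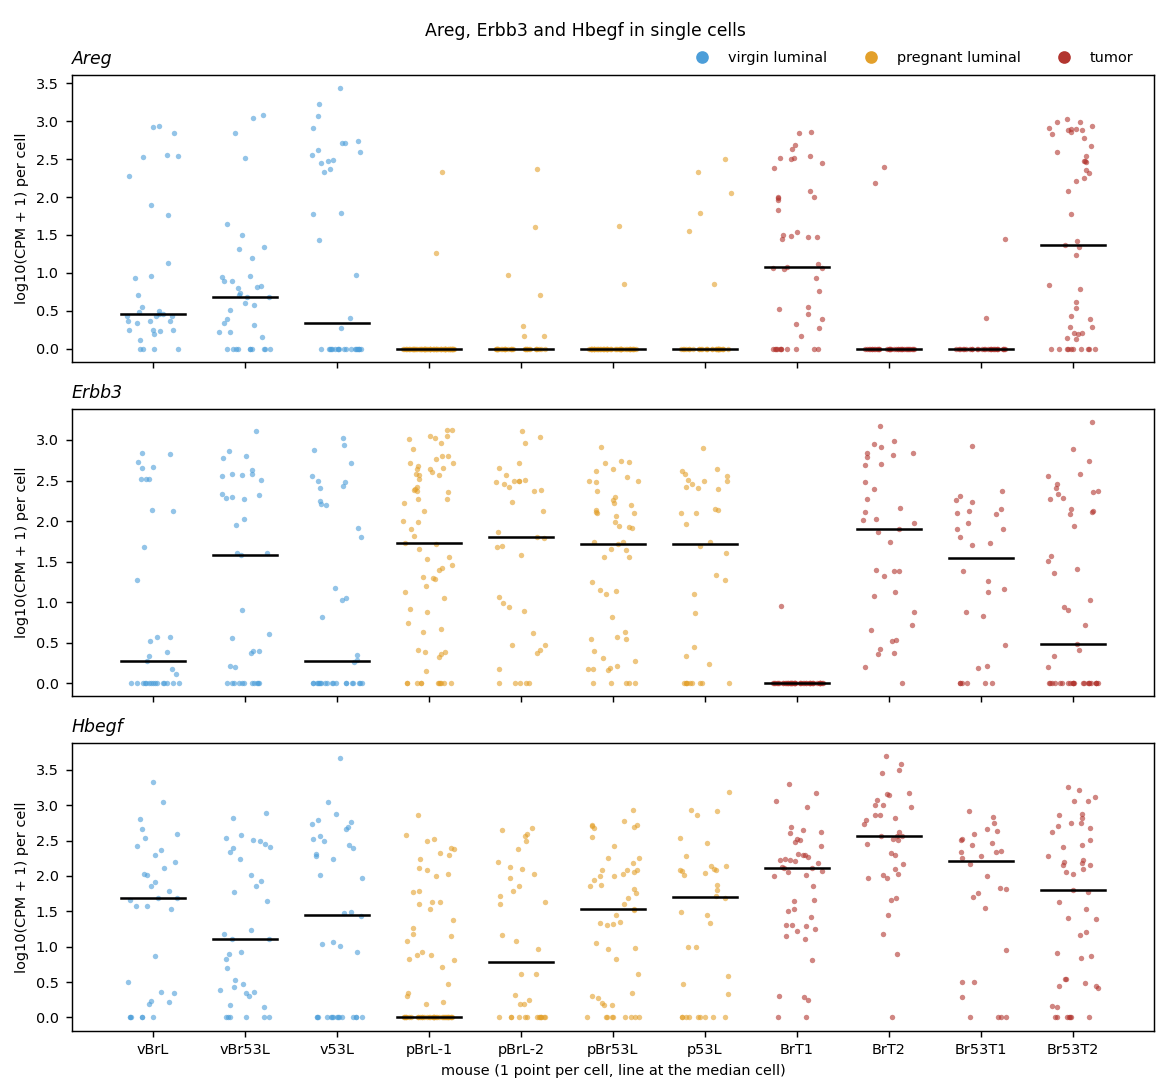
CPM of Areg, Erbb3 and Hbegf in every cell (points) on a log10(CPM + 1) axis for each mouse, with the median cell as a line. Areg spans cells at 0 and cells over 100 CPM within each virgin mouse, Erbb3 is read in 1 cell of BrT1, and Hbegf is read in most tumor cells.

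Between the stages, Areg moved with the summed markers of hormone-sensing luminal cells (Esr1, Pgr, Prlr, Cited1, Foxa1, Ly6a, Wnt4 and Tnfsf11). Their summed level ran from 868 to 5097 CPM over the virgin mice, from 251 to 370.4 CPM over the pregnant mice and from 33.9 to 2307 CPM over the tumors. Of the listed fibroblast genes, Dcn alone differed in the same direction, at 176 to 711 CPM over the virgin and 0.026 to 25.4 CPM over the pregnant mice, while Col1a1, Col1a2, Col3a1, Pdgfra and Lum stayed under 1 CPM in both. The summed basal markers (Krt5, Krt14, Krt17, Acta2, Myh11 and Trp63) were higher in pregnancy without overlap, at 0 to 69.5 CPM over the virgin and 88.5 to 375 CPM over the pregnant mice, most of it Krt14 except in pBrL-1, where Acta2 led. All 8 hormone-sensing genes were read in vBrL, vBr53L, pBr53L and p53L, while Tnfsf11 was at 0 in v53L and in pBrL-1, Cited1 at 0 in pBrL-1 and Foxa1 at 0 in pBrL-2. Prlr made up most of the sum in virgin and pregnant mice. Esr1, Pgr, Prlr, Cited1 and Ly6a did not overlap between the stages, which held for 11.4% of all genes, while Wnt4, Foxa1 and Tnfsf11 overlapped. Fewer cells of a type and less RNA per cell cannot be told apart in the level of a mouse, and the part of these markers in the Areg difference was not tested.

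Within the virgin mice, cells with an Areg read also held hormone-sensing genes more often. Pgr, the progesterone receptor, was read in 8 of 15 Areg-positive against 1 of 20 Areg-negative cells of vBrL. In vBr53L the counts for Pgr were 3 of 12 against 1 of 27, and in v53L 16 of 19 against 4 of 21. Cited1, a coactivator found in hormone receptor-positive cells, was read in 8 of 15 against 0 of 20 cells of vBrL, 6 of 12 against 2 of 27 of vBr53L and 18 of 19 against 5 of 21 of v53L. Elf5, the regulator of alveolar progenitors, went the other way, with 4 of 15 against 14 of 20, 6 of 12 against 17 of 27 and 1 of 19 against 9 of 21 cells. Other genes of the alveolar list were less uniform. Kit, the stem cell factor receptor, was read in 8 of 15 against 13 of 20, 10 of 12 against 15 of 27 and 3 of 19 against 11 of 21 cells of vBrL, vBr53L and v53L, more often in the Areg-positive cells of vBr53L, and Csn2, a milk casein, in 13 of 15 against 17 of 20, 11 of 12 against 26 of 27 and 12 of 19 against 18 of 21. Areg-positive cells of these mice also had more detected genes at equal depth, for example a median of 3172 against 2310.0 in v53L, so shares in both sets are not fully matched.

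The 2 Areg-high tumors differed in these partners. In Br53T2, Foxa1, the factor that opens chromatin for the estrogen receptor, was read in 17 of 31 Areg-positive against 2 of 20 Areg-negative cells, and Prlr, the prolactin receptor, in 28 of 31 against 9 of 20. In BrT1, Areg-positive cells held Esr1 in 1 of 31, Prlr in 1 of 31 and Cited1 in 0 of 31 cells. Areg in BrT1 was therefore read mostly in cells with no read of these markers. Krt14, a basal keratin, was read in 18 of 31 Areg-positive against 18 of 20 Areg-negative cells of Br53T2. The Areg-positive cells of Br53T2 also had more detected genes at equal depth, a median of 4131 against 3379.5, and held Krt8, a luminal keratin, in 30 of 31 against 13 of 20 cells.

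**Figure D4:**
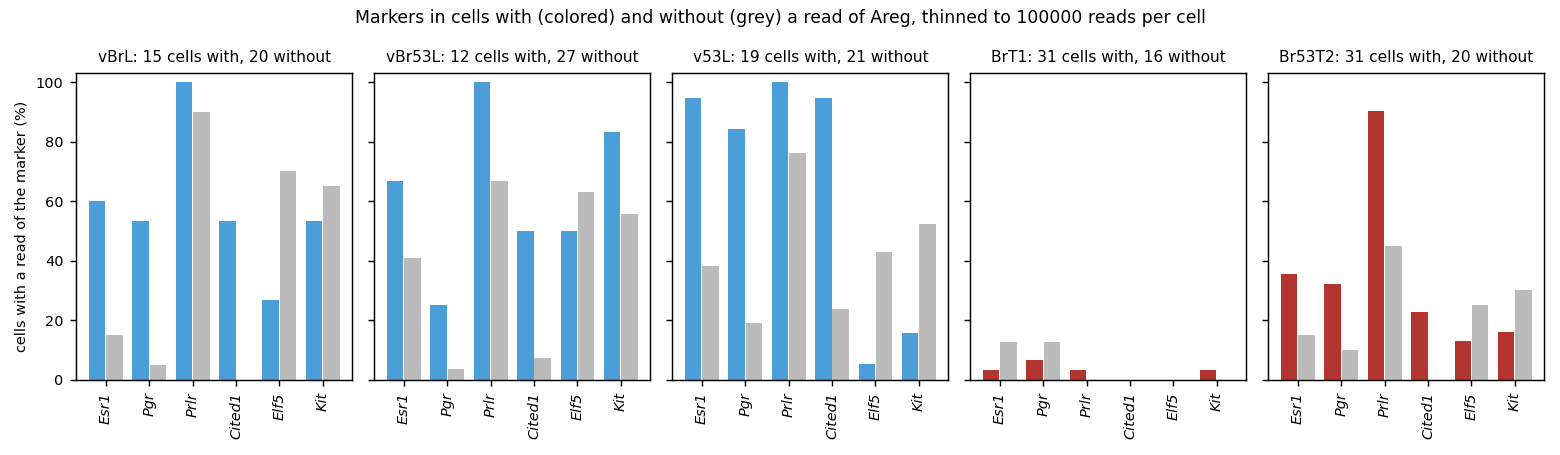
Share of cells (vertical axis, %) with a read of Esr1, Pgr, Prlr, Cited1, Elf5 or Kit among cells with (colored) and without (grey) an Areg read, after thinning to 100000 reads, in the 3 virgin mice and the 2 Areg-high tumors. Pgr and Cited1 are more frequent in the Areg-positive cells of all 3 virgin mice and of Br53T2, and nearly all bars of BrT1 are close to 0.

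The neighbours of Areg on chromosome 5 followed it in some mice only, and over the 11 mice Btc had a Pearson r of 0.11 with Areg. Btc encodes betacellulin, which binds Egfr and Erbb4, and its level lay between 2.36 and 5.51 CPM in the virgin, 1.3 and 12.4 CPM in the pregnant and 0.020 and 38.5 CPM in the tumor mice. Pregnant and virgin mice overlapped, with a fitted difference of 0.93 ± 1.32 (log2, SE) and an edgeR adjusted p of 0.873, and ran from 0.29 without pBrL-1 to 1.33 without vBrL. Among tumors Br53T2 held the highest Btc level, then BrT1, as for Areg, and BrT2 held the lowest, with 0 of 37 thinned cells showing a read. Tumors and Brca1-deficient luminal mice also overlapped, at 0.98 ± 1.26 (log2, SE, edgeR adjusted p 0.788).

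Ereg encodes epiregulin and was read in few cells. It had no read in 6 of the 11 mice, and 54.4 CPM in p53L, nearly all of it from 1 cell at 1729.9 CPM. In BrT1, BrT2 and Br53T2 it stood at 2.19, 6.23 and 2.74 CPM, and Br53T2 had the most cells with a read, 13 of 51. After thinning, 0 of 114 virgin cells held a read of Ereg, with exact 95% upper limits of 8.81 to 10.0% in single mice. Epgn, another ligand gene of this stretch and no member, was highest in Br53T2 at 271 CPM and v53L at 76.5 CPM, the mice with most Areg. It stood at 55.2 CPM in p53L and 17.7 CPM in BrT1, and at 0 in pBrL-2, BrT2 and Br53T1, so that it split the tumors as Areg did. Among luminal mice it did not follow Areg throughout. Epgn was 8.98 CPM in pBr53L, above vBrL at 8.08 and vBr53L at 0.191 CPM. In Br53T2 it was read in 14 of 31 Areg-positive and 10 of 20 Areg-negative cells, so that within this tumor Areg-positive cells did not hold it more often. The direction was the other way, with few cells, in BrT1 (5 of 31 against 1 of 16) and the virgin mice. There the counts were 2 of 15 against 1 of 20 in vBrL, 1 of 12 against 0 of 27 in vBr53L and 2 of 19 against 0 of 21 in v53L.

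Hbegf encodes heparin-binding EGF, a ligand of Egfr and Erbb4, and was the ligand read in most cells. Its levels were 207 (vBrL), 100.7 (vBr53L) and 312 CPM (v53L). In pregnant mice they were 54.7 (pBrL-1), 76.6 (pBrL-2), 125 (pBr53L) and 165 CPM (p53L), and in tumors 206 (BrT1), 775 (BrT2), 196 (Br53T1) and 270.0 CPM (Br53T2). BrT1, Br53T1 and Br53T2 lay within the luminal range, v53L lying above all 3, and BrT2 stood above every other mouse. The tumor mean was 362 ± 278 CPM (SD, n = 4) against 113 ± 58.8 CPM (SD, n = 5) in Brca1-deficient luminal mice, with a fitted difference of 1.61 ± 0.54 (log2, SE). The adjusted p from edgeR was 0.211 and that from DESeq2 0.0737. Without BrT2 the difference was 0.78.

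A read of Hbegf after thinning was found in 66.7 to 91.9% of cells of each tumor and in 33.8 to 67.9% of cells of each luminal mouse. BrT2 was highest with 34 of 37 cells (91.9%, exact 95% interval 78.1 to 98.3%). Between stages Hbegf was -0.85 ± 0.41 in pregnancy (log2, SE, edgeR adjusted p 0.60), and both stages overlapped. With 1 mouse left out it ran from -1.31 without pBr53L to -0.25 without vBrL. On chip SC6, the 1 chip with a tumor and luminal cells, Br53T2 exceeded pBrL-2 by 1.80 on the log2(CPM + 1) scale.

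Tgfa encodes transforming growth factor alpha, another Egfr ligand. Its levels were 2.55 (vBrL), 3.51 (vBr53L) and 41.8 CPM (v53L) in virgin mice. They were 2.81 (pBrL-1), 46.8 (pBrL-2), 23.6 (pBr53L) and 3.84 CPM (p53L) in pregnant mice, and 0 (BrT1), 31.2 (BrT2), 44.1 (Br53T1) and 12.9 CPM (Br53T2) in tumors, and no arm stood clear of another. The high value of v53L rested on 1 cell, which held 85.6% of its Tgfa reads. After thinning, Tgfa was read in 13 of 30 cells (43.3%, exact 95% interval 25.5 to 62.6%) of Br53T1 and 13 of 37 cells (35.1%, exact 95% interval 20.2 to 52.5%) of BrT2. In BrT1 it was read in 0 of 47 cells, with an exact 95% upper limit of 7.55%. It was read in 13.7% of Br53T2 cells and in at most 23.7% of the cells of a luminal mouse. The fitted differences were 0.39 ± 1.47 for tumors (log2, SE, edgeR adjusted p 0.948) and 1.67 ± 1.97 for pregnancy (adjusted p 0.839). With 1 mouse left out the tumor difference ran from -0.13 without Br53T1 to 1.26 without pBrL-2, and that for pregnancy from -0.29 without vBrL to 3.05 without v53L.

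Nrg1 encodes neuregulin 1, the ligand of Erbb3 and Erbb4. It was 22.5 (vBrL), 93.8 (vBr53L) and 41.8 CPM (v53L), and 5.21 (pBrL-1), 48.4 (pBrL-2), 5.9 (pBr53L) and 6.48 CPM (p53L). In tumors it was 76.8 (BrT1), 99 (BrT2), 72.1 (Br53T1) and 352 CPM (Br53T2). All 4 tumors lay above all luminal mice except vBr53L, which exceeded BrT1 and Br53T1. The mean was 149.8 ± 135 CPM (SD, n = 4) in tumors and 35.2 ± 37.2 CPM (SD, n = 5) in Brca1-deficient luminal mice. The fitted difference was 1.94 ± 0.85 (log2, SE), and the adjusted p from edgeR was 0.338 and 0.161 with DESeq2. With each mouse left out in turn the difference was 1.12 to 2.74, lowest without Br53T2 and highest without vBr53L.

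A single cell held 22.5 to 100.0% of the Nrg1 reads of a mouse. In vBrL that cell held 84.9% of the reads, and the level without it was 3.52 CPM. In Br53T2 the level without it was still 278 CPM, with reads in 21 of 51 cells (41.2%, exact 95% interval 27.6 to 55.8%) after thinning. Shares in tumors were 23.3 to 45.9%, and in luminal mice 2.78 to 13.2% apart from 33.3% in vBr53L. Between stages the difference was -2.10 ± 1.18 (log2, SE, edgeR adjusted p 0.635), and both stages overlapped. With 1 mouse left out it ran from -3.29 without vBrL to -1.05 without pBr53L.

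**Figure D5:**
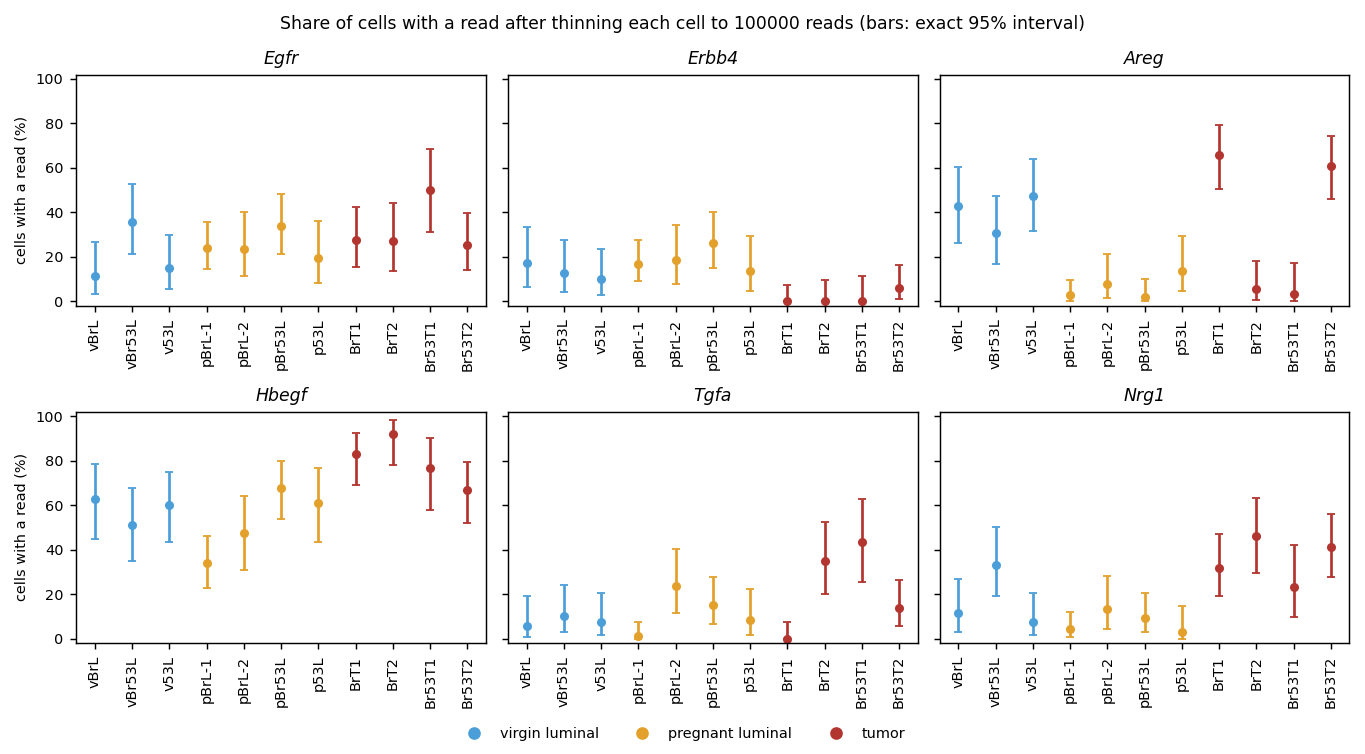
Share of cells with a read (vertical axis, %) after thinning each cell to 100000 reads, with exact 95% intervals (bars), for Egfr, Erbb4, Areg, Hbegf, Tgfa and Nrg1 in each mouse. Erbb4 is read in 10.0 to 26.4% of luminal cells and in at most 5.88% of the cells of a tumor, and Areg splits the tumors into pairs.

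Among the receptors, Egfr binds most of these ligands. Its levels were 9.2 (vBrL), 66.8 (vBr53L) and 22.7 CPM (v53L), and 25 (pBrL-1), 5.62 (pBrL-2), 34.7 (pBr53L) and 15.2 CPM (p53L). In tumors they were 29.7 (BrT1), 82 (BrT2), 80.3 (Br53T1) and 64.1 CPM (Br53T2). Of the luminal mice, only vBr53L lay within the range of the higher 3 tumors, and BrT1 lay within the luminal range. The mean was 64 ± 24.3 CPM (SD, n = 4) in tumors against 28.3 ± 24.6 CPM (SD, n = 5) in Brca1-deficient luminal mice. The fitted difference was 1.04 ± 0.69 (log2, SE) and the adjusted p from edgeR was 0.548. With 1 mouse left out it ran from 0.75 without pBrL-2 to 1.62 without vBr53L.

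After thinning, Egfr was read in 15 of 30 cells of Br53T1 (exact 95% interval 31.3 to 68.7%), the highest share, and in 25.5 to 27.7% of the cells of the other 3 tumors. Luminal shares ran from 11.4% in vBrL to 35.9% in vBr53L. Pregnancy left Egfr at -0.15 ± 0.76 (log2, SE, edgeR adjusted p 0.979). In v53L 1 cell held 77.4% of the Egfr reads, and the level without it was 5.25 CPM.

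Erbb2 is the partner receptor whose amplification marks a class of human breast cancer. It was 23.4 (vBrL), 51.3 (vBr53L) and 13.2 CPM (v53L), and 24.5 (pBrL-1), 16.7 (pBrL-2), 27.2 (pBr53L) and 4.04 CPM (p53L). In tumors it was 12.9 (BrT1), 13.9 (BrT2), 46.7 (Br53T1) and 43.8 CPM (Br53T2). The 2 Br53 tumors lay above the 2 Br tumors, 1.68 ± 0.84 (log2, SE, edgeR adjusted p 1.000, DESeq2 0.56), and the 2 Br53 luminal mice above the 2 53 mice, 2.18 ± 0.83 (edgeR adjusted p 0.867, DESeq2 0.0628). Tumors and Brca1-deficient luminal mice held similar means, 29.3 ± 18.4 CPM (SD, n = 4) and 28.6 ± 13.3 CPM (SD, n = 5), with a difference of -0.14 ± 0.56 whose sign depended on the scaling.

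The highest tumor level, in Br53T1, was below that of vBr53L. After thinning, Erbb2 was read in 18.9 to 40.0% of the cells of a tumor and 16.7 to 28.9% of those of a luminal mouse. Of its 8 listed neighbours on chromosome 11 (Cdk12, Med1, Stard3, Pgap3, Mien1, Grb7, Psmd3 and Nr1d1), 0 were called by edgeR and 0 by DESeq2 in tumors, beside 0.609% and 6.44% of all genes, so that 0 of 8 lies near the background. Grb7, the adaptor next to Erbb2, was at 0 in BrT1 and at 16.1 to 55.5 CPM in the other tumors.

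Erbb3, the neuregulin receptor that signals through its partners to PI3 kinase, had the highest receptor level per kb in every mouse but BrT1. Its levels were 139 (vBrL), 169 (vBr53L) and 132 CPM (v53L), and 256 (pBrL-1), 209.9 (pBrL-2), 125 (pBr53L) and 149 CPM (p53L). In tumors they were 0.155 (BrT1), 241 (BrT2), 86.2 (Br53T1) and 127 CPM (Br53T2). The 7 luminal mice lay between 125 and 256 CPM, BrT2 lay at their upper end, and BrT1 stood apart with reads in 1 of 47 cells. Per kb, Erbb3 exceeded Egfr in every other mouse, whereas in BrT1 it was 0.0257 CPM per kb and Egfr 2.62.

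Against Brca1-deficient luminal mice the Erbb3 difference in tumors was -0.73 ± 1.07 (log2, SE, edgeR adjusted p 0.819). With 1 mouse left out it ran from -1.54 without BrT2 to -0.32 without BrT1, and it was -2.01 with limma on mean CPM over cells. Thinned cells held a read of Erbb3 in 1 of 47 cells (2.13%, exact 95% interval 0.0539 to 11.3%) of BrT1 and 27 of 37 cells (73%, exact 95% interval 55.9 to 86.2%) of BrT2. In luminal mice the share was 40.0 to 51.3% in virgin and 61.1 to 76.3% in pregnant mice, and these ranges did not overlap. The level did, with a stage difference of 0.26 ± 0.33 (log2, SE, edgeR adjusted p 0.849). Median genes per cell at equal depth were 2794 to 3316 in virgin and 3356 to 4284 in pregnant mice, and the part of this in the shares was not tested. In BrT1 the low Erbb3 stood beside the low Epcam and Cdh1 given above, and their part was not tested.

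Erbb4, the receptor tied to alveolar differentiation, was 3.16 (vBrL), 1.59 (vBr53L) and 3.57 CPM (v53L), and 16.9 (pBrL-1), 15.5 (pBrL-2), 17.8 (pBr53L) and 3.99 CPM (p53L). In tumors it was 0.0221 (BrT1), 0 (BrT2), 0.109 (Br53T1) and 8.09 CPM (Br53T2). Each pregnant mouse lay above each virgin mouse, with p53L only just above v53L, and only Br53T2 among tumors had a level above 1 CPM. In p53L 1 cell held 67.2% of the Erbb4 reads. Without the top cell of each mouse, p53L stood at 1.34 CPM, below vBrL at 2.22 and v53L at 2.12 CPM. The stage difference was 2.11 ± 1.21 (log2, SE), and the adjusted p from edgeR was 0.638 and 0.124 with DESeq2. The tumor difference was -2.59 ± 1.83 (log2, SE, edgeR adjusted p 0.58), and -8.10 without Br53T2 (edgeR adjusted p 0.0839), where the other 3 tumors held 2, 0 and 6 Erbb4 reads.

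The share of thinned cells with an Erbb4 read overlapped between stages, at 10.0 to 17.1% in virgin and 13.9 to 26.4% in pregnant mice. It was higher in the pregnant mouse on both shared chips, 26.4 against 12.8% on SC7 and 13.9 against 10.0% on SC9. In tumors it was 0 of 47, 0 of 37 and 0 of 30 cells in BrT1, BrT2 and Br53T1, and 3 of 51 cells in Br53T2. For BrT1, BrT2 and Br53T1 the exact 95% intervals, which cover counting error, reached 7.55, 9.49 and 11.6%. In Br53T2, 77.6% of the Erbb4 reads were in 1 cell. Alveolar genes (Elf5, Kit, Aldh1a3, Csn2, Csn3, Lalba and Wap) were also higher in pregnancy, at 17855 to 28020.3 CPM in virgin, 52425 to 75018 in pregnant and 19.5 to 4019 in tumor mice, most of it Csn2 and Csn3 except in BrT1. The pregnant mouse lowest in Erbb4, p53L, had the highest of these sums but the lowest Elf5 of the 4, 135 CPM, and the part of these genes and of the basal markers given above was not tested.

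Between luminal genotypes, the 2 mice that keep Brca1 (v53L and p53L) were compared with Br53 mice at the same stages. Areg was lower in Br53 at each stage, 106.003 against 293 CPM in virgin and 0.914 against 22.3 CPM in pregnant mice. The fitted difference was -2.98 ± 0.95 (log2, SE) and the adjusted p from edgeR was 0.867 and that from DESeq2 0.022. With each mouse left out in turn it was -4.54 to -1.82, largest without vBr53L and smallest without pBr53L. The summed hormone-sensing markers were also lower, at 868 against 5097 CPM in virgin and 291 against 370.4 CPM in pregnant mice. Of the 8, all but Tnfsf11 were lower in vBr53L than in v53L, while in pregnant mice 4 (Esr1, Pgr, Cited1 and Wnt4) were higher in pBr53L. The Br53 mice were on chip SC7 and the 53 mice on SC9, so genotype and chip cannot be told apart. Egfr was 1.28 ± 0.94 and Hbegf -1.02 ± 0.54 in Br53 (log2, SE, edgeR adjusted p 0.867 and 0.867), each without overlap between the pairs, beside 31.1% of all genes. With 1 mouse left out Egfr ran from 0.66 without vBr53L to 1.76 without pBr53L, and Hbegf from -2.001 without pBr53L to -0.32 without vBr53L.

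Ligand and receptor were then looked at in the same thinned cells, where a read of both in a cell says that 1 cell carried both RNAs. Areg and Egfr met in 22 of all cells (4.61%). In virgin mice Egfr was read in 6 of 46 ligand-positive (13%) and 18 of 68 ligand-negative cells (26.5%). By mouse the counts were 2 of 15 against 2 of 20 in vBrL, 4 of 12 against 10 of 27 in vBr53L and 0 of 19 against 6 of 21 in v53L, so that the gap lay in v53L. In tumors Egfr was read in 13 of 65 ligand-positive (20.0%) and 38 of 100 ligand-negative cells (38%). Cells of 1 mouse are not replicates, and these counts mix mice of unlike Areg levels: within BrT1 Egfr was read in 7 of 31 Areg-positive and 6 of 16 Areg-negative cells, and within Br53T2 in 6 of 31 and 7 of 20.

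Hbegf and Egfr met more often, in 84 of all cells (17.6%). In tumors Egfr was read in 42 of 130 ligand-positive (32.3%) and 9 of 35 ligand-negative cells (25.7%), and in luminal mice in 42 of 166 ligand-positive (25.3%) and 33 of 146 ligand-negative cells (22.6%). The direction differed among mice. It was the other way in Br53T2, 7 of 34 against 6 of 17, and in 3 of the 7 luminal mice, 7 of 20 against 7 of 19 in vBr53L, 12 of 36 against 6 of 17 in pBr53L and 4 of 22 against 3 of 14 in p53L. At least 1 of Areg, Ereg, Hbegf, Btc and Tgfa was read in most cells of a tumor, with or without Egfr. In BrT1 it was read in all 13 Egfr-positive cells and in 45 of 47 cells in all, and in BrT2 in all 10 and 35 of 37. In Br53T1 the counts were 14 of 15 and 26 of 30, and in Br53T2 10 of 13 and 42 of 51. In pBrL-1, the lowest luminal mouse, they were 9 of 17 Egfr-positive cells and 35 of 71 cells in all, so that Egfr-positive cells stood close to the other cells of their mouse.

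Nrg1 and Erbb3 met in 44 cells. In the 3 tumors with more than 1 Erbb3-positive cell, the share of Nrg1-positive cells with Erbb3 was 28.6% in Br53T2, 71.4% in Br53T1 and 76.5% in BrT2. Among their Nrg1-negative cells it was 56.7%, 56.5% and 14 of 20 cells. In luminal mice Erbb3 was read in 20 of 34 ligand-positive (58.8%) and 168 of 278 ligand-negative cells (60.4%). BrT1 held Nrg1 in 15 of 47 cells with Erbb3 in 1. No tumor cell held both Nrg1 and Erbb4, which was read in only 3 thinned tumor cells. The receptor pair Erbb2 and Erbb3 was read together in 10 of 114 virgin cells (8.77%), 32 of 198 pregnant cells (16.2%) and 22 of 165 tumor cells (13.3%), with none in BrT1. Thinned cells held a mean of 0.489 receptors in BrT1 and 0.85 to 1.5 in the other mice, out of 4.

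The tumors also differed in which ligand led per kb. In Br53T2 Areg stood first at 214 CPM per kb, then Hbegf at 55.9, Nrg1 at 34 and Btc at 8.51. In BrT1 Areg led at 82.5 CPM per kb with Hbegf at 42.6. In BrT2 and Br53T1 Hbegf led, at 160.4 and 40.6 CPM per kb, and Areg stood at 7.997 and 0.84. These orders within a mouse have no replicate.

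Genes with the most similar levels over the 11 mice were found by Pearson correlation of log2(CPM + 1) among 10603 genes, as a description with no test, since the mice share stages and chips. For Erbb3 they were Galnt3 (r = 0.98), Fxyd3 (r = 0.97) and Amt (r = 0.97). For Erbb4 they were Ehhadh (r = 0.98), Cish (r = 0.94) and Rad17 (r = 0.94), of which Cish is a target of Stat5 signalling. For Areg they were Ubl5 (r = 0.92), Vapa (r = 0.91) and C1qtnf6 (r = 0.89), and for Hbegf Gnai2 (r = 0.91), Ggta1 (r = 0.88) and Repin1 (r = 0.88). For Egfr they were Lamb2 (r = 0.90), Ssh1 (r = 0.89) and Npc1 (r = 0.88), and for Erbb2 Lad1 (r = 0.92), Zfp809 (r = 0.91) and Hdac4 (r = 0.90).

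Downstream of the receptors, 28 listed relay genes, 12 receptor brakes, 10 ERK feedback genes and 12 ERK response genes were tested in the same fits. Of these, edgeR called 1 in the tumor comparison and 0 in the other 3, beside the 0.609% of all genes given above. The called gene was Pik3r1, the regulatory subunit of PI3 kinase, which is recruited by phosphorylated Erbb3. Pik3r1 was 33.9 to 136 CPM in tumors and 295 to 475 in Brca1-deficient luminal mice, without overlap, and fell by 2.30 ± 0.40 (log2, SE, edgeR adjusted p 0.0367, DESeq2 7.31e-06). DESeq2 called 1 relay gene higher, Plcg1, phospholipase C gamma, at 1.92 ± 0.62 (DESeq2 adjusted p 0.0342, edgeR 0.194).

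ERK feedback genes had a median log2 difference of 0.71 in tumors, with 8 of 10 above 0, and ERK response genes 0.96, with 9 of 12 above 0, beside 0.057 over all genes. DESeq2 called 2 feedback genes higher (Spry1 and Spred1), 3 response genes higher (Etv5, Ier3 and Hmga1) and 1 lower (Klf6, named after its values were seen, at -1.17 ± 0.33, DESeq2 adjusted p 0.00605), beside 6.44% of all genes. Spry1, Hmga1 and Klf6 overlapped between the arms. Spred1, an inhibitor of Ras signalling, was 74.9 to 133 CPM in tumors and 20.6 to 52.9 in Brca1-deficient luminal mice, with a difference of 1.75 ± 0.38 (log2, SE, edgeR adjusted p 0.0648). Etv5, an ETS factor induced by ERK, was 24.7 to 327 CPM in tumors and 4.51 to 16.9 in Brca1-deficient luminal mice, at 3.71 ± 0.84 (edgeR adjusted p 0.0695). Ier3, an early response gene, was 304 to 1597 CPM in tumors and 31.5 to 153 in Brca1-deficient luminal mice, at 2.54 ± 0.59 (edgeR adjusted p 0.0754). These 3 are among the 2 of 10 feedback and 3 of 12 response genes that did not overlap between the arms, beside 7.52% of all genes.

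The 7 shedding genes, proteases and rhomboid proteins that release the ligands, had a median log2 difference of -0.98 in pregnancy beside 0.14 over all genes, and DESeq2 called 2 lower (Adam9 and Adam10) and edgeR 0, beside 8.09% and 0.0146% of all genes. Adam9 ranged over 75.3 to 227 CPM in the virgin and 35.9 to 75.1 CPM in the pregnant mice. It alone of the 7 did not overlap, by a narrow gap between vBrL and p53L, beside 11.4% of all genes. The Adam9 difference was -1.20 ± 0.40 (log2, SE, edgeR adjusted p 0.479, DESeq2 0.0488). Adam10, the protease that cuts betacellulin, ranged over 325 to 1651 CPM in the virgin and 196 to 629 CPM in the pregnant mice, a difference of -1.65 ± 0.39 (log2, SE, edgeR adjusted p 0.265, DESeq2 0.00447). Adam17, the protease that releases amphiregulin and transforming growth factor alpha, ranged over 42.5 to 140.0 CPM in the virgin and 26.5 to 64 CPM in the pregnant mice, which overlapped. A pair of further ligands, named after their values were seen, were low: Egf stayed at or under 5.19 CPM in all mice, and Nrg3 had no read.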

How the data were processed

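Single luminal and tumor cells had been sorted, captured on C1 chips and sequenced as SMARTer cDNA with Nextera libraries. The authors deposited unnormalized read counts, 1 column per cell, in which PCR copies count because molecular identifiers were not used. They aligned the reads to mm10 with STAR 2.5.3a and counted with Subread 1.5.3 after trimming with Trim Galore 0.4.1. The gene annotation and the use of strand are not given in the sources used here.

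For each mouse, the replicate, its cells were added up, and the sums were tested with edgeR 4.0.16 (filterByExpr, TMM, quasi-likelihood, Benjamini-Hochberg over all genes, called under 0.05) in R 4.3.3. Pregnancy and luminal genotype were fitted together over the 7 luminal mice. SEs were taken from the quasi-likelihood F. Most groups held 1 mouse, so the arms pool genotypes or stages. Cells were thinned to 100000 reads (no cell fell below it), with exact 95% binomial intervals. Lengths are exon unions of GENCODE vM21. The alternatives were DESeq2 1.42.0, limma 3.58.1 on mean CPM with a pseudocount of 1, RLE or library-size scaling, no filter, at least 2000 genes per cell, 30 cells per mouse, other arms or covariates, each mouse left out and, chosen after seeing the data, each gene without its highest cell. No doublet caller was run. The edgeR step was tested on simulated data. All 10 members were named, with genes of the lists that were called or had the largest differences from a mean of 10 CPM up, and the 3 genes most like a member. The members and lists were chosen with earlier results of these data known.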

Additional observations from a re-analysis of the deposited data

Results flagged for a closer look

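Of 40 checks of a member in a group of 4 to 7 mice, 6 found 1 mouse far from the others, by a gap limit that about 1 in 20 groups of normally distributed values pass by chance. Levels that are mostly 0, as for Ereg, are not so distributed. Erbb4 in Br53T2 (8.09 CPM) lay far above the other 3 tumors, at 0 to 0.109 CPM. Erbb4 in p53L (3.99 CPM) lay far below the other pregnant mice, at 15.5 to 17.8 CPM. Nrg1 in pBrL-2 (48.4 CPM) lay above the other pregnant mice, at 5.21 to 6.48 CPM, with 67.1% of its reads in 1 cell. Ereg in p53L (54.4 CPM) stood apart both among the pregnant and among all luminal mice, again through 1 cell. Ereg in pBr53L (0.00993 CPM) was flagged because the other Brca1-deficient luminal mice had no read. No member passed the test of a tumor effect that differs with the Trp53 genotype.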

How the results depend on the processing

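The count of members called in the tumor comparison was 0 under every alternative run. In the pregnancy comparison the count rose from 0 to 1 (Areg) with DESeq2 and with chip in place of genotype and to 2 (Areg and Ereg) without the low-count filter, and it was 0 to 1 when each mouse was left out. Between Br53 and 53 luminal mice it was 1 (Areg) with DESeq2 and 1 without the filter, and 0 otherwise. Between Br53 and Br tumors it was 0 to 2 when each tumor was left out. The 2 calls, Erbb3 and Tgfa, appeared without BrT2, where BrT1 was the lone Br tumor, assumed to vary like the others. Over all genes, calls in tumors were 79, against 808 with DESeq2, 296 with limma, 204 without the highest cell of each gene, 40 with 30 cells per mouse and 11 to 94 with each mouse left out, lowest without pBrL-1. In pregnancy they were 2, against 1044 with DESeq2, 366 without the filter, 96 with chip as covariate and 0 to 41 with each mouse left out. Between luminal genotypes they were 0, against 582 with DESeq2 and 0 to 123 with each mouse left out, and between tumor genotypes 0, 315 and 0 to 228. Library size alone moved the median of all genes in tumors from 0.057 to 0.20.

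No member whose sign turned was called with all mice. In tumors Erbb2 turned to 0.039 with library size alone, 0.14 against all 7 luminal mice and 0.19 against the 3 pregnant ones, where Tgfa was -0.24. With 30 cells per mouse Areg was -0.090 and Btc -0.80. In pregnancy Egfr was 0.45 without the highest cell of each gene, and with chip as covariate Erbb3 was -0.048 and Tgfa -0.27. Between tumor genotypes Erbb3 was 2.58 with limma. With mice left out, the tumor differences ran over -0.44 to 0.17 for Erbb2, -0.34 to 1.73 for Areg, -0.12 to 1.38 for Btc and -0.13 to 1.26 for Tgfa, the pregnancy differences over -0.73 to 0.21 for Egfr, -0.076 to 0.55 for Erbb3 and -0.29 to 3.05 for Tgfa, and those between tumor genotypes over -1.35 to 9.42 for Erbb3 and -0.46 to 14.14 for Tgfa. The cause was not tested.

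Of 110 shares of cells, 39 left their interval when every read was kept and 0 with at least 2000 genes per cell. No paired analysis was possible because replicate numbers only name cells in accession order and pair no mice. The fit with chip as covariate, given above, compares the stages within the 2 chips that held both.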
